A study of Mus musculus with 16 samples.

Results

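The skin of mice that carried LysM-Cre was compared with the skin of mice that did not, across both Krt14-Cre backgrounds of the study. The carriers were the 8 mice of the MKO and EMdKO groups, the non-carriers were the 8 mice of the Control and EKO groups, and together they were all 16 mice of the series. All 16 were homozygous for a floxed Zc3h12a allele (loxP/loxP), the controls included, and were 12 weeks old. Control mice had no Cre, EKO mice had 1 copy of Krt14Cre, MKO mice had 1 copy of LysMCre, and EMdKO mice had both. Each group held 4 mice, and the RNA was total RNA of whole skin. Mice with LysM-Cre and an intact Zc3h12a gene were not analysed here, so Cre at its locus and loss of Zc3h12a cannot be told apart in these groups.

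Zc3h12a encodes MCPIP1, also called Regnase-1, a ribonuclease that cuts stem-loops in the mRNAs of cytokines and other inflammatory genes and so limits how long those mRNAs last. LysM-Cre is expressed from the Lyz2 gene, which macrophages, monocytes and neutrophils transcribe, whereas Krt14 is transcribed in basal keratinocytes. Macrophages of the dermis take up debris and microbes through scavenger receptors, read sialic acids through Siglecs, present antigen on MHC class II and release chemokines that place other leukocytes.

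With LysM-Cre, the skin held more mRNA of a small set of immune genes, with the same direction in both backgrounds. They were the scavenger receptor Marco, the sialic acid receptor Siglece, the guanylate-binding protein Gbp2b, the cytokine genes Ebi3 and Tnfsf13b, the B cell chemokine Cxcl13, the B-lineage genes Jchain and Cd79b, and Adgre1, which encodes the macrophage antigen F4/80. The count data were fitted with LysM-Cre and Krt14-Cre as 2 additive terms (edgeR quasi-likelihood test, Benjamini-Hochberg adjustment over all 13633 targets tested). At an adjusted p under 0.05, 17 targets were called, which is 0.125% of those tested. Of these, 13 (0.0954%) were higher and 4 (0.0293%) were lower in carriers. Besides the immune genes named above, the 13 higher targets included Mrgprg, Fbxl21, Gtdc1 and Zc3h7a. All 17 had the same direction in MKO against Control and in EMdKO against EKO. They were selected on the pooled effect of these 2 comparisons, so this is a description and no independent replication, and 61.4% of all tested targets had the same sign in both. The targets lay on 11 chromosomes. Tnfsf13b, Jchain, Cd79b and Adgre1 stood next to the threshold, each with an edgeR quasi-likelihood adjusted p of 0.0499. They kept the call in 8 of 30, 13 of 29, 9 of 30 and 9 of 30 alternative fits. On its own, MKO against Control gave 4 called targets and EMdKO against EKO gave 2. DESeq2 called 245 targets, 89 higher and 156 lower, with all 17 among them, and stricter filtering left 6. Without EKO mouse 1 and Control mouse 1, the libraries with the highest hair gene levels of their groups, 32 targets were called, 13 higher and 19 lower, and 11 of the 17 were among them.

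Promoter sequence is shown for the 5 called genes whose 8 carrier values all lay above the 8 non-carrier values, so that the stretch ahead of each start site can be read beside its values. Each runs 5′ to 3′ on the gene's own strand from 250 bases before to 50 bases after the annotated start (RefSeq, GRCm38.p6). The regions are chr1:120504975-120505274 on the minus strand for Marco, chr7:43660112-43660411 on the minus strand for Siglece, chr3:142594597-142594896 on the plus strand for Gbp2b, chr17:55952373-55952672 on the plus strand for Ebi3 and chr5:88527848-88528147 on the minus strand for Jchain. Capitals mark matches on either strand to the core GAGGAA that PU.1 and other ETS factors read, to the interferon regulatory factor core AANNGAAA, to the AP-1 motif TGANTCA and to the NF-kB motif.
Marco: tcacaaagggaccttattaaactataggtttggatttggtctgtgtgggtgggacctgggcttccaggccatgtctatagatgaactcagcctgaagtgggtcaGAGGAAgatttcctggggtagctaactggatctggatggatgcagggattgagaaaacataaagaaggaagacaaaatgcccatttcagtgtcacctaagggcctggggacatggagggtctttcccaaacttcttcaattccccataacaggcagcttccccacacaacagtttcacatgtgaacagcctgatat
Siglece: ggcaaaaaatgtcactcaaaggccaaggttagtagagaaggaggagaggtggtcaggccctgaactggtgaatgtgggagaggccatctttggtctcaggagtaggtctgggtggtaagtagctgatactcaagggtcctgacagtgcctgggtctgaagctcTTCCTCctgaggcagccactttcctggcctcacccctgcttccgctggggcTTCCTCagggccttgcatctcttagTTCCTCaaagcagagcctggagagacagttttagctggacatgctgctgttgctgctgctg
Gbp2b: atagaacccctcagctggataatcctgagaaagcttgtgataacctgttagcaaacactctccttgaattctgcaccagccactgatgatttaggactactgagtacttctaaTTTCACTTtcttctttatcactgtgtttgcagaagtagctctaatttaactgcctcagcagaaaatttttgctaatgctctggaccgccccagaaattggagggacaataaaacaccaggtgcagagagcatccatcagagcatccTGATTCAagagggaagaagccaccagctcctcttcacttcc
Ebi3: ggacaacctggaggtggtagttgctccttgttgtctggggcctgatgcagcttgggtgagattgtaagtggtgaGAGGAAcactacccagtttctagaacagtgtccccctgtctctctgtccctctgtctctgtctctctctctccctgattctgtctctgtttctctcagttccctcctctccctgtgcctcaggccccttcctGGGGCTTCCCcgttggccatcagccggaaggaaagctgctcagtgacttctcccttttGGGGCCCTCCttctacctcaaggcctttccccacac
Jchain: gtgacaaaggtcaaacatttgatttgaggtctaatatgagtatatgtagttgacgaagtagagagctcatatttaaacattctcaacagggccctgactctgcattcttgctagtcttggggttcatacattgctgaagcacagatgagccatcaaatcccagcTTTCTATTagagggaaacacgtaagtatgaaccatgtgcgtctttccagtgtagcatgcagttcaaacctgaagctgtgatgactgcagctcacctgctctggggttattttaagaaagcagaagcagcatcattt

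The ETS core stood once in the Marco window, 146 bases before the start, 3 times in the Siglece window on the opposite strand, 87, 36 and 11 bases before the start, and once in the Ebi3 window, 176 bases before the start. The Ebi3 window also held an NF-kB match 44 bases before the start, read on both strands, and another beginning at base 14 after it. Gbp2b had an interferon regulatory factor core 137 bases before its start and an AP-1 match at base 9 after it, and Jchain had an interferon regulatory factor core 86 bases before its start. These letters are common: the ETS core was found in 28.3% and the interferon regulatory factor core in 24.2% of 27025 mouse promoter windows of the same length, the AP-1 motif in 7.93% and the NF-kB motif in 8.18%. Among the 15 called genes that had a promoter entry, 5 held the ETS core (Marco, Siglece, Ebi3, Kifc1 and Rcc1) and 5 the interferon regulatory factor core (Gbp2b, Jchain, Tnfsf13b, Hnrnpm and Rcc1). The AP-1 motif was in 3 of them and the NF-kB motif in 2. The GAS motif TTCNNNGAA, which STAT factors read, was in 1 of them, Mrgprg, against 8.47% of all windows. A match describes the letters of the window, and binding was not measured.

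The libraries held 6962474 to 12086327 counts, with a median of 8183259.5 in carriers and 8334494.5 in non-carriers. Levels are given as CPM, which sets every library to the same scaled total. The markers of skin were present, as Krt14, Krt5, Krt1, Krt10, Col1a1 and Col3a1 had at least 3088 counts in every library. The macrophage genes Adgre1, Csf1r and Cd68 were present in every library, whereas the target for C1qa had at most 1 count in any. The neutrophil gene Ly6g had 1 count over all 16 libraries. In whole skin, fewer cells of a type and less of an mRNA per cell cannot be told apart.

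Zc3h12a, the floxed gene, was lower with Krt14-Cre, and its difference with LysM-Cre did not pass. Its 8 carriers had 17.1, 35.0, 29.2 and 24.9 CPM in MKO mice 1 to 4 and 5.47, 5.69, 5.71 and 4.41 CPM in EMdKO mice 1 to 4. The non-carriers had 19.4, 21.7, 30.3 and 27.4 CPM in the Control mice and 11.7, 7.07, 7.40 and 8.41 CPM in the EKO mice. MKO overlapped Control, while every EMdKO value lay below every EKO value. Over both backgrounds the difference in mean log2 CPM was -0.29 (exact permutation test within Krt14-Cre status, two-sided, 4900 assignments, p = 0.140, Benjamini-Hochberg adjusted over 3 genes 0.211, smallest possible p 0.000408). The difference of the LysM-Cre effect between backgrounds had an unadjusted p of 0.0245 for Zc3h12a in the edgeR quasi-likelihood test and an adjusted p of 0.999. Whether the Zc3h12a target reads the floxed part is not given in the sources used here.

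Lyz2, the lysozyme gene that carries the Cre, was lower in carriers. MKO mice 1 to 4 had 263, 176, 225 and 209 CPM against 344, 324, 548 and 363 CPM in Control mice. EMdKO mice had 188, 295, 248 and 191 CPM against 147, 402, 537 and 395 CPM in EKO mice. The 4 MKO values lay below all Control values. EKO mouse 1 lay below the EMdKO range, and the other 3 EKO mice lay above it. The mean log2 CPM differed by -0.70 (exact permutation test, two-sided, p = 0.0131, adjusted over 3 genes 0.0392). In the fit over all targets Lyz2 did not pass (log2 fold change -0.77 ± 0.21 SE, edgeR quasi-likelihood adjusted p = 0.148). Krt14 differed by -0.33 (exact permutation p = 0.315, adjusted 0.315).

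Marco, which encodes a scavenger receptor for bacteria and particles on macrophages, had the lowest p of all targets tested. It was nearly undetected without LysM-Cre. The 8 non-carriers had 0.248, 0.288, 0.0934 and 0.125 CPM (Control 1 to 4) and 0.206, 0.0872, 0 and 0.131 CPM (EKO 1 to 4), which are 0 to 2 counts a library. Carriers had 2.67, 8.09, 5.84 and 4.39 CPM (MKO 1 to 4) and 9.94, 7.996, 8.37 and 3.88 CPM (EMdKO 1 to 4), from 17 counts in MKO mouse 1 to 120 counts in EMdKO mouse 1. No carrier value came near a non-carrier value. The summed counts, 476 against 10, gave a ratio of 47.5 (exact 95% interval 25.6 to 99.6, counting error only). The log2 fold change was 5.35 ± 0.39 SE (edgeR quasi-likelihood adjusted p = 1.44e-06), with 4.77 ± 0.52 in MKO against Control and 5.96 ± 0.55 in EMdKO against EKO.

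Siglece encodes Siglec-E, an inhibitory receptor of macrophages and neutrophils that binds sialic acids. Control mice had 1.49, 2.16, 2.06 and 1.87 CPM and EKO mice had 1.34, 1.75, 1.46 and 2.10 CPM. MKO mice had 4.23, 11.4, 7.39 and 9.66 CPM and EMdKO mice had 8.29, 8.72, 11.04 and 5.36 CPM. The non-carriers sat within a narrow band, and the lowest carrier, MKO mouse 1, was above all of it. Carriers differed by a log2 fold change of 2.21 ± 0.21 SE (edgeR quasi-likelihood adjusted p = 5.99e-05). Marco and Siglece were the only targets called for EMdKO against EKO, 2 targets or 0.0147% of those tested, and both were also among the 4 targets (0.0293%) called for MKO against Control, the other two being Gbp2b and Mrgprg.

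No other gene of the scavenger receptor and Siglec lists was called. Of 30 tested scavenger and pattern recognition receptor genes, 1 was called (Marco), 15 were higher and 15 lower, and their median log2 fold change was -0.02, against 0.0027 over all targets. At an unadjusted p under 0.05, 4 of the 30 were higher, where 5.73% of all targets were, and 6 were lower, where 7.20% of all targets were. Among them the formyl peptide receptor gene Fpr1 had a log2 fold change of 2.24 ± 0.58 SE and the C-type lectin gene Clec4d had -4.12 ± 0.94 SE, and neither passed (edgeR quasi-likelihood adjusted p = 0.135 and 0.102). The scavenger receptor A gene Msr1 had -1.30 ± 0.34 SE (adjusted p = 0.135) and the beta-glucan receptor gene Clec7a had -0.52 ± 0.17 SE (adjusted p = 0.226). Of 6 tested Siglec genes, Siglece alone was called. The other named members were Siglech, a receptor of plasmacytoid dendritic cells, at -1.14 ± 0.35 SE, Cd33 at 0.39 ± 0.20 SE, and Siglec1 of tissue macrophages at -0.17 ± 0.18 SE (edgeR quasi-likelihood adjusted p = 0.197, 0.411 and 0.713).

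**Figure D1:**
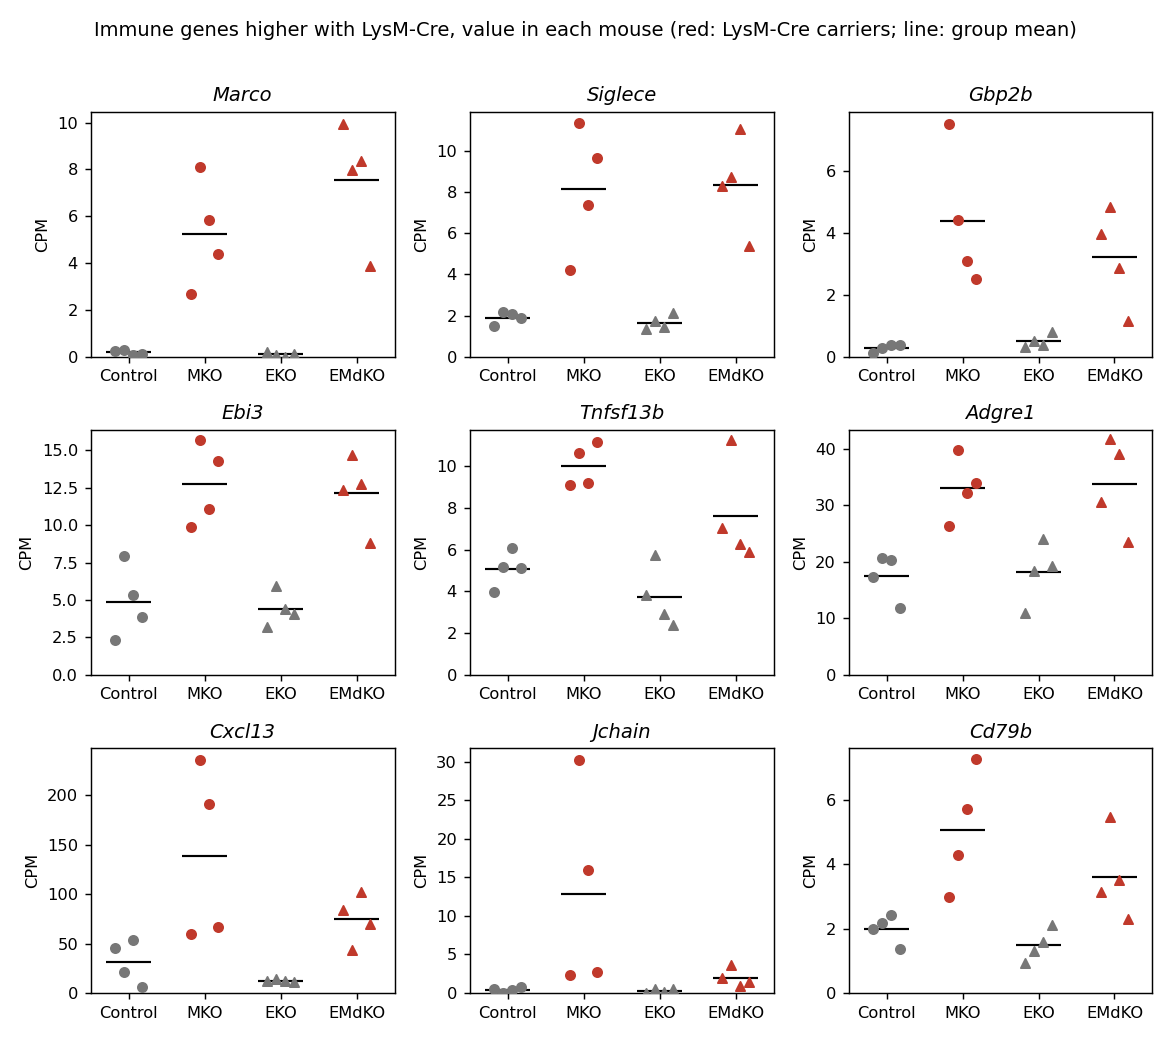
CPM (vertical axes, from 0) of 9 called immune genes in the 4 mice of each group (horizontal axes), with red points for LysM-Cre carriers, grey points for non-carriers, circles without and triangles with Krt14-Cre, and a line at each group mean. Marco, Siglece, Gbp2b, Ebi3 and Jchain show no overlap between the 8 carriers and the 8 non-carriers, and Jchain and Cxcl13 spread most among the MKO mice.

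Markers of macrophages did not move as a group, and 1 of them, Adgre1, rose. Adgre1 had 17.2, 20.6, 20.3 and 11.9 CPM in Control mice, 26.3, 39.7, 32.2 and 33.9 CPM in MKO mice, 10.9, 18.3, 24.03 and 19.3 CPM in EKO mice and 30.6, 41.7, 39.1 and 23.4 CPM in EMdKO mice. MKO lay above Control without overlap, while EMdKO mouse 4 lay just below EKO mouse 3. Its log2 fold change was 0.91 ± 0.17 SE (edgeR quasi-likelihood adjusted p = 0.0499). Of 26 tested macrophage and monocyte markers, Adgre1 alone was called, 11 were higher, 15 were lower and the median log2 fold change was -0.08. The summed CPM of the 26 ran from 1186 to 1860 in carriers and from 1195 to 2294 in non-carriers. With the mean level of this list as a covariate, 16 targets were called, of which 12 were among the 17.

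No other macrophage marker passed in either direction. At an unadjusted p under 0.05, 6 of the 26 were higher and 4 were lower. Lyz1, the lysozyme gene next to Lyz2, had 40.6, 43.6, 40.9 and 43.7 CPM in Control mice, 118.5, 80.4, 104 and 129 CPM in MKO mice, 95.99, 28.6, 25.97 and 55.8 CPM in EKO mice and 114, 81.7, 158 and 72.3 CPM in EMdKO mice. MKO stood above Control without overlap, and EKO mouse 1 lay inside the EMdKO range. It differed by 1.199 ± 0.24 SE on the log2 scale (edgeR quasi-likelihood adjusted p = 0.0626), opposite in sign to that of Lyz2. Lyz1 and Lyz2 are near-identical copies, and how reads were divided between them is not given in the sources used here, so both values are uncertain. Aif1, which encodes the macrophage protein IBA1, had 0.91 ± 0.20 SE (adjusted p = 0.0922), the integrin gene Itgam had 0.77 ± 0.20 SE (adjusted p = 0.143) and the haemoglobin scavenger receptor gene Cd163 had 0.46 ± 0.17 SE (edgeR quasi-likelihood adjusted p = 0.262). Among the lower markers besides Lyz2, Fcgr1, a high-affinity receptor for IgG, had -1.01 ± 0.31 SE and Cd68, a lysosomal glycoprotein of macrophages, had -0.48 ± 0.18 SE (edgeR quasi-likelihood adjusted p = 0.197 and 0.281). Among 21 lysosome and lipid-handling genes of macrophages none was called and 15 were lower, with a median of -0.18. The lysosomal protease gene Lgmn had the smallest p of these, with -0.54 ± 0.12 SE (edgeR quasi-likelihood adjusted p = 0.0922).

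Gbp2b, an interferon-induced guanylate-binding protein that acts against intracellular microbes, was the third called target. Control mice had 0.124, 0.288, 0.374 and 0.375 CPM and EKO mice had 0.310, 0.523, 0.364 and 0.788 CPM. MKO mice had 7.52, 4.42, 3.10 and 2.51 CPM and EMdKO mice had 3.98, 4.85, 2.85 and 1.16 CPM. The lowest carrier, EMdKO mouse 4, lay above the highest non-carrier, EKO mouse 4. The summed counts, 258 against 28, gave a ratio of 9.19 (exact 95% interval 6.21 to 14.1, counting error only), and the log2 fold change was 3.20 ± 0.38 SE (edgeR quasi-likelihood adjusted p = 0.000732). Gbp genes are close copies of each other and reads could be shared among them, so the value of one member is uncertain.

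Of 11 guanylate-binding and immunity-related GTPase genes on the panel 9 were tested. All 9 were higher in carriers, where 50.5% of all targets were. Their median log2 fold change was 0.64 (0.72 in MKO against Control and 0.58 in EMdKO against EKO). At an unadjusted p under 0.05, 5 of the 9 were higher, where 5.73% of all targets were. Gbp2b was the called one. It had at most 6 counts in any non-carrier library, so it passed the filter on low counts through the carriers. As reads could be shared among Gbp genes, the members may not be separate observations. Gbp5, at 0.81, was the member that turned, to -0.20, when the cell cycle level was a covariate; it did not pass in either fit. Gbp4 had 1.43 ± 0.36 SE and Gbp2 had 0.71 ± 0.21 SE, and neither passed (edgeR quasi-likelihood adjusted p = 0.125 and 0.182). Gbp4 stood at 11.3, 68.6, 29.6 and 19.6 CPM in Control mice and at 28.5, 31.7, 24.4 and 19.97 CPM in EKO mice. It stood at 134, 128, 40.8 and 50.5 CPM in MKO mice and at 55.2, 132, 50.05 and 41.2 CPM in EMdKO mice, so that only Control mouse 2 reached into the carrier range.

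MHC genes were mostly higher and type I interferon genes mostly lower in carriers, with no single gene of either list called. Of 24 tested MHC and antigen presentation genes none was called, 19 were higher, 6 had an unadjusted p under 0.05 and the median was 0.27. The median was 0.097 with the hair level as a covariate and 0.12 without EKO mouse 1 and Control mouse 1. H2-Aa, a class II chain, had 0.73 ± 0.20 SE (edgeR quasi-likelihood adjusted p = 0.154). Irf1, a transcription factor induced by interferon gamma, had 0.54 ± 0.20 SE (adjusted p = 0.272), and the 10 tested genes of its list of other interferon gamma response genes had a median of 0.30 with none called. Of 18 type I interferon response genes none was called, 17 were lower in carriers, 5 of them at an unadjusted p under 0.05, and the median was -0.64. The transcription factor gene Irf7 had -1.39 ± 0.42 SE and the 2′-5′ oligoadenylate synthetase-like gene Oasl1 had -1.93 ± 0.56 SE (edgeR quasi-likelihood adjusted p = 0.192 and 0.179). The summed CPM of the 18 was 241.4 to 490.6 in carriers and 223.4 to 1623 in non-carriers, with the top value in Control mouse 2. Without that mouse the median of the list was -0.14, and the differences were -0.81 for Irf7 and -1.08 for Oasl1.

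Among cytokine genes of activated macrophages, Ebi3 and Tnfsf13b rose. Ebi3, the shared subunit of interleukin-27 and interleukin-35, had 2.35, 7.91, 5.33 and 3.87 CPM in Control mice and 3.20, 5.93, 4.37 and 4.07 CPM in EKO mice. It had 9.88, 15.7, 11.1 and 14.3 CPM in MKO mice and 12.3, 14.7, 12.8 and 8.82 CPM in EMdKO mice, so that every carrier was above every non-carrier. This was a log2 fold change of 1.43 ± 0.21 SE (edgeR quasi-likelihood adjusted p = 0.0104). Il27, the partner subunit of Ebi3 in interleukin-27, had too few counts to be tested, with 3 to 12 counts a library in carriers and 1 to 30 in non-carriers.

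Tnfsf13b encodes BAFF, a survival factor for B cells. Control mice had 3.96, 5.18, 6.07 and 5.12 CPM, MKO mice 9.09, 10.6, 9.18 and 11.2 CPM, EKO mice 3.82, 5.76, 2.91 and 2.37 CPM and EMdKO mice 7.04, 11.3, 6.28 and 5.88 CPM. The groups did not overlap within either background, and EMdKO mouse 4 was below Control mouse 3. The log2 fold change was 0.99 ± 0.19 SE (edgeR quasi-likelihood adjusted p = 0.0499). Ebi3 and Tnfsf13b were the 2 called of 14 tested cytokine genes, whose median was 0.07. Il1b, the gene of a main inflammatory cytokine, had -1.48 ± 0.69 SE (edgeR quasi-likelihood adjusted p = 0.380), and Il6 and Il12b had at most 6 counts in any library and were not tested.

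The immune mRNAs that MCPIP1 is described to degrade showed no common shift. Of 33 on the list, 22 were tested, none was called, 10 were higher and 12 lower, and the median log2 fold change was -0.03. The 12 lower members included Zc3h12a itself, the floxed gene, at -0.28 ± 0.18 SE. The T cell costimulator gene Icos had 0.82 ± 0.28 SE and the NF-kB subunit gene Rel had 0.38 ± 0.18 SE, which were the 2 higher members at an unadjusted p under 0.05, and Il1b was the 1 lower member (edgeR quasi-likelihood adjusted p = 0.238 for Icos and 0.374 for Rel). Il6, Il12b, Il2, Il17a, Calcr and Csf2 were among the 10 members on the panel with too few counts to be tested, and Il17a had 0 counts in all 16 libraries. Of 15 NF-kB subunit and feedback genes, 12 were higher with a median of 0.14, and Birc3, an inhibitor of cell death, had the smallest p with 0.49 ± 0.13 SE (edgeR quasi-likelihood adjusted p = 0.151).

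**Figure D2:**
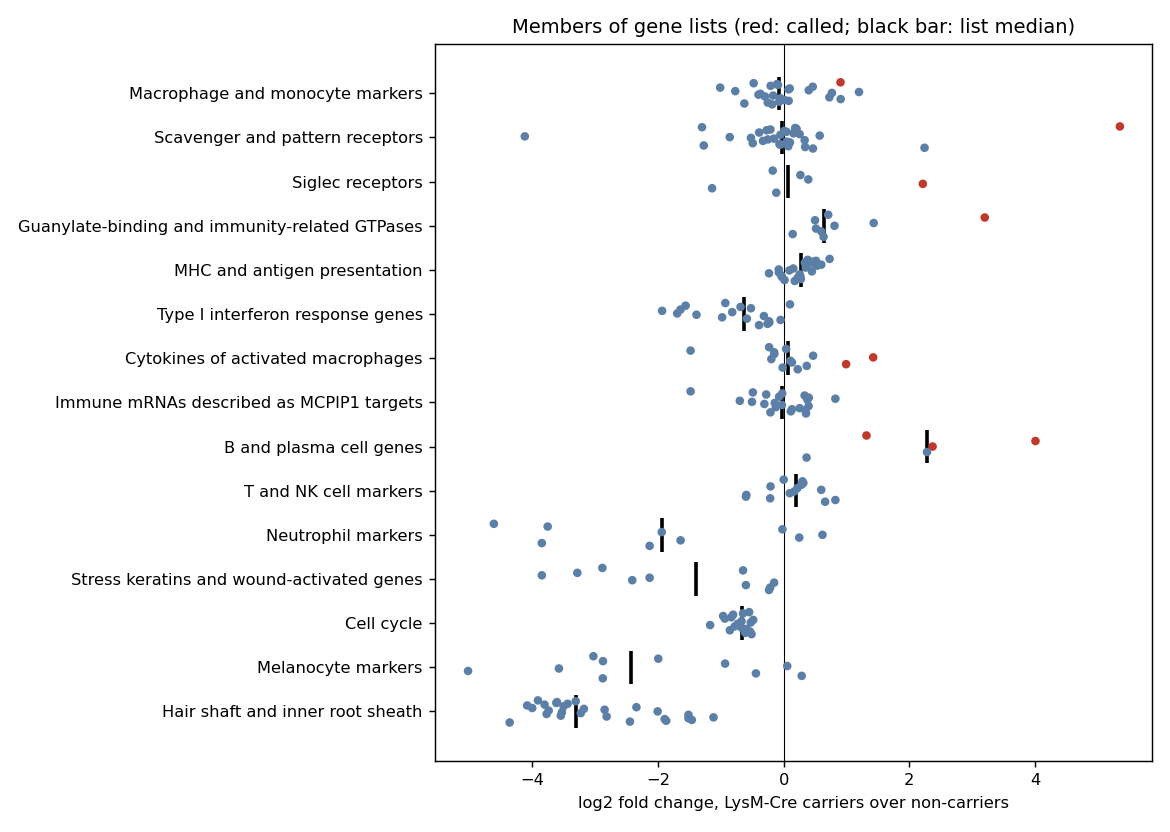
log2 fold change of carriers over non-carriers (horizontal axis) for each tested member of 15 gene lists (rows), with called members in red and a black bar at the median of the list. The 9 guanylate-binding and immunity-related GTPase genes all lie above 0 and the 18 cell cycle and 27 hair genes all lie below it, while macrophage markers lie on both sides.

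The list of B and plasma cell genes, which also holds genes that act on B cells or are shared with other cells, contained 3 of the 17 called targets: the chemokine Cxcl13 and the B-lineage genes Jchain and Cd79b. Cxcl13, the chemokine that draws B cells through CXCR5, had 45.2, 21.4, 53.3 and 6.12 CPM in Control mice and 11.9, 13.96, 11.8 and 11.2 CPM in EKO mice. It had 59.4, 236, 191 and 66.8 CPM in MKO mice and 84.1, 43.1, 103 and 69.4 CPM in EMdKO mice. Carriers were above non-carriers within each background, and EMdKO mouse 2 lay below 2 Control mice. For Cxcl13 the log2 fold change was 2.37 ± 0.38 SE (edgeR quasi-likelihood adjusted p = 0.0218). It was 1 of 31 tested chemokine and receptor genes to be called. Their median was -0.34, which was -0.34 in MKO against Control and 0.058 in EMdKO against EKO, and it turned to 0.050 without Control mouse 2. The monocyte chemokine gene Ccl8 had -0.84 ± 0.22 SE and Ccl3 had -3.06 ± 0.87 SE (edgeR quasi-likelihood adjusted p = 0.146 and 0.163).

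Jchain encodes the joining chain of IgA and IgM that plasma cells make. Non-carriers had 0.495, 0, 0.374 and 0.750 CPM (Control) and 0, 0.523, 0.121 and 0.525 CPM (EKO). Carriers had 2.35, 30.2, 15.97 and 2.76 CPM (MKO) and 1.99, 3.63, 0.856 and 1.47 CPM (EMdKO). The groups did not overlap, and the level of carriers rested on MKO mice 2 and 3, the same 2 mice that were highest for Cxcl13. Jchain had a log2 fold change of 4.01 ± 0.71 SE (edgeR quasi-likelihood adjusted p = 0.0499). Summed counts were 487 against 25, a ratio of 19.4 (exact 95% interval 13.0 to 30.3, counting error only), with 32.7 in MKO against Control and 6.34 in EMdKO against EKO.

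Cd79b, part of the B cell receptor, had 1.98, 2.16, 2.43 and 1.37 CPM in Control mice, 2.98, 4.30, 5.72 and 7.28 CPM in MKO mice, 0.929, 1.31, 1.58 and 2.10 CPM in EKO mice and 3.15, 5.45, 3.52 and 2.31 CPM in EMdKO mice. Carriers lay above non-carriers within each background, and EMdKO mouse 4 fell just below Control mouse 3. The log2 fold change was 1.32 ± 0.24 SE (edgeR quasi-likelihood adjusted p = 0.0499). Pou2af1, a transcriptional coactivator of B cells, had 1.88, 12.1, 9.18 and 1.38 CPM in MKO mice, 1.08, 1.21, 0.761 and 1.36 CPM in EMdKO mice and 0.121 to 1.73 CPM in the non-carriers, so that the groups overlapped. It did not pass (2.28 ± 0.57 SE, edgeR quasi-likelihood adjusted p = 0.125).

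Several defining genes of B cells were scarce in all libraries. Ms4a1 had 4 counts summed over carriers and 6 over non-carriers, and Pax5 had 23 and 57. The plasma cell genes Mzb1, Tnfrsf17 and Derl3 had 29 and 15, 48 and 60, and 8 and 14. Of the 12 genes of this list on the panel 5 were tested (Jchain, Cd79b, Pou2af1, Cxcl13 and Cd74, the MHC class II invariant chain gene that all antigen-presenting cells use). All 5 were higher in carriers, with a median log2 fold change of 2.28, and Cd74 had 0.36 ± 0.22 SE (edgeR quasi-likelihood adjusted p = 0.487). Jchain and Pou2af1 had at most 6 and 12 counts in any non-carrier library, against up to 239 and 96 in carriers. Among the members not tested, Mzb1 alone had more counts in carriers. The direction and median of the 5 therefore depend on which members passed the filter on low counts. Of 14 tested T and NK cell markers 10 were higher, none was called and the median was 0.19. It was -0.12 with the hair level as a covariate and -0.060 without EKO mouse 1 and Control mouse 1.

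Mrgprg, a Mas-related G protein-coupled receptor, was higher with LysM-Cre by an amount that varied widely between mice. Non-carriers had 0.619, 0.144, 0.654 and 0.125 CPM (Control) and 0.103, 0.0872, 0.607 and 0.788 CPM (EKO). MKO mice had 9.56, 17.9, 27.9 and 3.51 CPM, whereas EMdKO mice had 2.40, 0.727, 3.04 and 2.42 CPM, and EMdKO mouse 2 lay below EKO mouse 4. The log2 fold change was 4.03 ± 0.61 SE (edgeR quasi-likelihood adjusted p = 0.0125). The change was 5.14 ± 0.73 in MKO against Control and 2.53 ± 0.76 in EMdKO against EKO. Among the called targets, Mrgprg was alone in an interaction p under 0.05 before adjustment, and its adjusted p was 0.999 (edgeR quasi-likelihood test). The other 5 tested Mas-related receptor genes had log2 fold changes from -0.17 for Mrgprf to 0.35 for Mrgprb3, and Mrgprb2, the receptor through which mast cells respond to basic secretagogues, had 0.17 ± 0.31 SE.

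Of the remaining higher targets, Fbxl21, a ubiquitin ligase subunit that acts on clock proteins, had 1.61 to 2.43 CPM in Control, 3.45 to 4.17 CPM in MKO, 1.13 to 1.55 CPM in EKO and 2.21 to 3.62 CPM in EMdKO mice. Carriers lay above non-carriers within each background (log2 fold change 1.01 ± 0.17 SE, edgeR quasi-likelihood adjusted p = 0.0342). Gtdc1, a glycosyltransferase-like gene, had 0.52 ± 0.10 SE and also lay above within each background, from 23.5 to 31.0 CPM in MKO against 16.97 to 19.1 CPM in Control and from 17.7 to 20.9 CPM in EMdKO against 12.6 to 16.8 CPM in EKO mice. Zc3h7a, a zinc finger protein gene, had 0.55 ± 0.10 SE, and MKO mouse 1 with 56.6 CPM lay just below Control mouse 3 with 57.1 CPM. Both had an edgeR quasi-likelihood adjusted p of 0.0499.

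The called genes in carriers that fell were Hnrnpm, Rcc1, Kifc1 and Uox, each with an edgeR quasi-likelihood adjusted p of 0.0499. Hnrnpm, a splicing factor gene, had 40.4 to 68.6 CPM in MKO, 45.2 to 54.2 CPM in EMdKO, 66.2 to 114 CPM in Control and 71.2 to 89.8 CPM in EKO mice, a log2 fold change of -0.69 ± 0.13 SE. Rcc1, a chromatin-bound exchange factor of the GTPase Ran, had 7.51 to 9.23 CPM in MKO, 8.54 to 13.0 CPM in EMdKO, 11.1 to 18.4 CPM in Control and 12.9 to 16.9 CPM in EKO mice, with -0.69 ± 0.13 SE. Kifc1, a kinesin that focuses the poles of the mitotic spindle, had -0.85 ± 0.16 SE. Kifc1 was also the 1 of the 17 targets that was called for Krt14-Cre, in the other direction (0.73 ± 0.16 SE, edgeR quasi-likelihood adjusted p = 0.0357), in a fit that called 126 targets for Krt14-Cre. Its levels were 6.11 to 9.16 CPM in MKO, 9.16 to 18.2 CPM in Control, 9.78 to 12.7 CPM in EMdKO and 17.7 to 29.5 CPM in EKO mice.

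Uox, the gene of urate oxidase, had 0 counts in all 4 MKO mice. Control mice had 6.44, 5.47, 0.654 and 2.62 CPM, EKO mice 3.20, 4.88, 16.99 and 1.05 CPM and EMdKO mice 0.580, 0.121, 1.81 and 0.420 CPM. Every MKO mouse was below every Control mouse, and EMdKO mouse 3 lay above EKO mouse 4. The summed counts were 0 in MKO against 118 in Control mice, for which the exact 95% interval of the ratio reaches up to 0.0355. The ratio of summed counts of EMdKO over EKO mice was 0.119 (exact 95% interval 0.0794 to 0.174, counting error only).

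Cell cycle genes were lower in carriers in both backgrounds. All 18 tested members of the list had a negative difference in each background, where 4150 of all 13633 targets had. At an unadjusted p under 0.05, 16 of the 18 were lower, where 7.20% of all targets were. None was called at an adjusted p under 0.05. The median log2 fold change was -0.67, with -0.65 in MKO against Control and -0.70 in EMdKO against EKO. This median lay between -0.48 and -0.44 with the hair level as a covariate and without EKO mouse 1 and Control mouse 1. The mean log2 CPM of the list was 4.83, 3.57, 3.77 and 3.61 in Control mice 1 to 4. It was 2.64, 3.40, 3.32 and 3.95 in MKO mice 1 to 4, so MKO and Control overlapped. EMdKO mice, at 3.66 to 3.94, lay below EKO mice, at 4.35 to 4.77. Plk1, a mitotic kinase, had 14.7, 6.04, 6.17 and 4.12 CPM in Control, 3.29, 2.65, 2.98 and 5.90 CPM in MKO, 14.8, 11.2, 13.2 and 9.06 CPM in EKO and 5.05, 4.48, 4.09 and 6.41 CPM in EMdKO mice. The EMdKO and EKO mice did not overlap, and MKO mouse 4 lay above Control mouse 4. Plk1 had -1.17 ± 0.24 SE, the cyclin gene Ccnb2 had -0.96 ± 0.20 SE and the anaphase activator gene Cdc20 had -0.94 ± 0.21 SE (edgeR quasi-likelihood adjusted p = 0.0778, 0.0858 and 0.0922). With the mean level of these genes as a covariate, the called targets were 2, Marco and Siglece.

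Hair shaft, pigment cell, stress keratin and neutrophil genes were lower in carriers on average, and differed widely between mice of the same group. The 27 tested hair shaft and inner root sheath genes were all lower and none was called, with a median of -3.31, which was -6.58 in MKO against Control and -0.58 in EMdKO against EKO. Their summed level ran from 78.53 to 904.6 CPM in MKO, from 166.1 to 47110 CPM in Control, from 105.8 to 9586 CPM in EMdKO and from 240.9 to 9091 CPM in EKO mice. The mean log2 CPM of these genes was 9.16, 6.50, 4.72 and -0.54 in Control mice 1 to 4, and 0.89, -0.50, 6.43 and -0.44 in EMdKO mice 1 to 4. It was 6.55, 3.60, 4.85 and 1.36 in EKO mice 1 to 4, and -0.72, -0.44, -0.48 and 2.97 in MKO mice 1 to 4. Control mouse 4 lay far below the other Control mice, whereas EMdKO mouse 3 and MKO mouse 4 lay far above the others of their groups. The hair keratin gene Krt35 had 113, 23.3, 6.45 and 0.125 CPM in Control mice and 0, 0, 0.119 and 0.878 CPM in MKO mice. Its log2 fold change was -3.74 ± 1.37 SE (edgeR quasi-likelihood adjusted p = 0.262). With the mean hair level as a covariate, 6 targets were called, of which 5 were among the 17 (Gbp2b, Marco, Ebi3, Cxcl13 and Siglece).

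The 10 melanocyte markers had a median of -2.44 with none called, and Pmel, a protein of pigment granules, had -2.88 ± 0.80 SE (edgeR quasi-likelihood adjusted p = 0.154). All 10 stress keratin and wound-activated genes were lower, 7 at an unadjusted p under 0.05, with none called and a median of -1.39. Krt16, a keratin of activated epidermis, had 80.1, 370, 39.0 and 29.9 CPM in Control, 10.03, 25.5, 21.2 and 9.29 CPM in MKO, 21.6, 419, 1165 and 153 CPM in EKO and 44.9, 56.9, 92.9 and 56.5 CPM in EMdKO mice. MKO lay below Control, and EKO mouse 1 lay below all EMdKO mice (log2 fold change -2.88 ± 0.64 SE, edgeR quasi-likelihood adjusted p = 0.0925).

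Of 9 tested neutrophil genes none was called, 7 were lower, 6 at an unadjusted p under 0.05, and the median was -1.94. The members did not move together. Summed counts in carriers and non-carriers were 4388 and 3588 for Mmp9 and 544 and 533 for Csf3r. They were 299 and 154 for Retnlg, with up to 219 in a single carrier library. S100a8, a calcium-binding alarmin of neutrophils and activated keratinocytes, had 5.45, 17.7, 1.03 and 0.125 CPM in Control, 0.470, 0.253, 0 and 0.502 CPM in MKO, 0.413, 70.9, 247 and 15.2 CPM in EKO and 2.57, 0.727, 4.00 and 5.14 CPM in EMdKO mice. EKO mice 2 and 3 were far above the rest, and EKO mouse 1 and Control mice 3 and 4 lay within the carrier range (log2 fold change -4.61 ± 1.02 SE, edgeR quasi-likelihood adjusted p = 0.0922). The neutrophil genes Ly6g and Mpo had at most 1 count in any library and Elane at most 3. The summed level of the 9 ran from 78.85 to 323.1 CPM in carriers and from 75.77 to 1773 CPM in non-carriers. Whether the cell cycle, hair, stress keratin or neutrophil levels have a part in the called differences was not tested beyond the covariate fits given here.

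**Figure D3:**
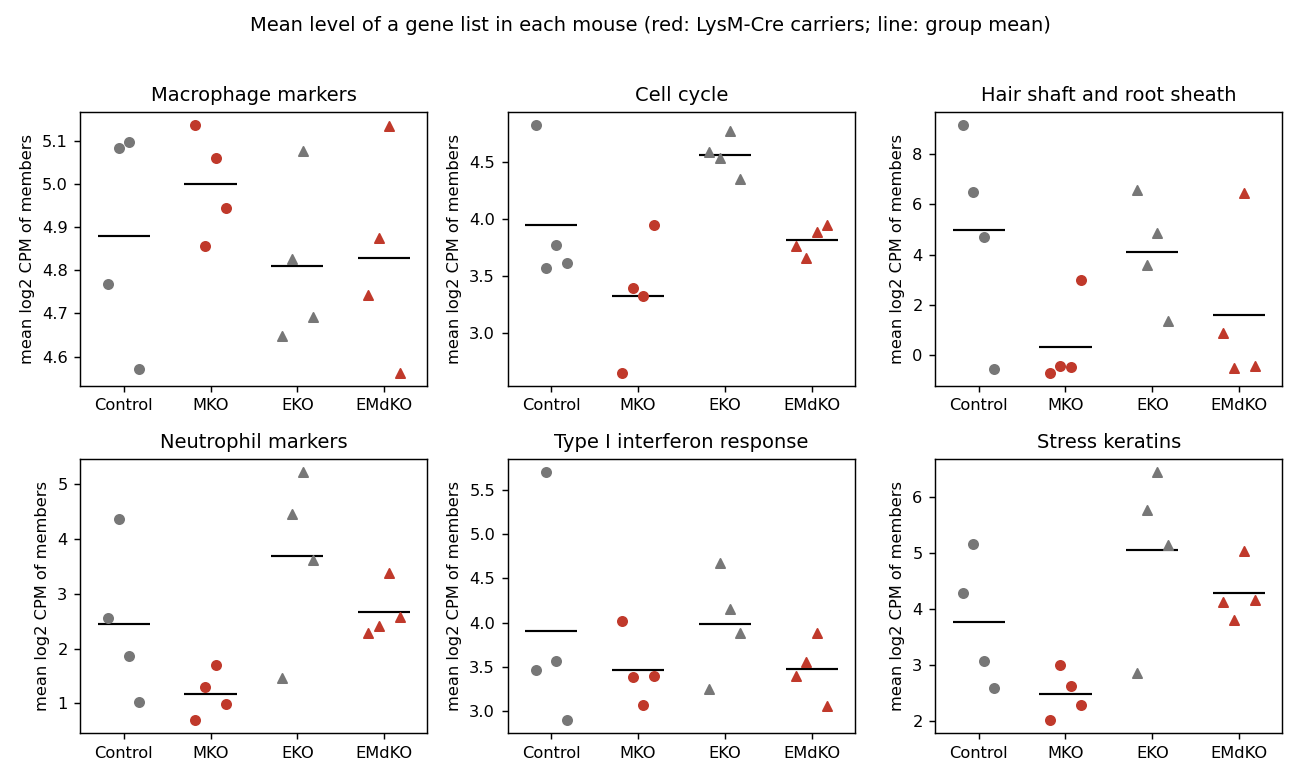
Mean log2 CPM of the tested members (vertical axes) of 6 gene lists in the 4 mice of each group (horizontal axes), with red points for LysM-Cre carriers, grey points for non-carriers and a line at each group mean. Macrophage markers overlap between all groups, cell cycle genes are lower in the 4 EMdKO than in the 4 EKO mice, and hair genes range from -0.54 to 9.16 within the Control group.

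The size of the LysM-Cre effect was compared between backgrounds with an interaction term, (EMdKO - EKO) - (MKO - Control). No target was called (0 of 13633, 0%), with 465 targets at an unadjusted p under 0.05 and a smallest adjusted p of 0.999 in the edgeR quasi-likelihood test. DESeq2 called 3, the hair keratin-associated protein genes Krtap4-1, Krtap5-4 and Krtap19-9b, and limma-voom called 0. For 14 of the 17 called targets the log2 fold changes of both backgrounds were within 1.5 times of each other. The 17 were selected on the pooled effect of these same comparisons, and the share over all tested targets was not counted. The 14 are therefore a description and do not show that the effects are equal. Siglece had 2.10 ± 0.31 and 2.33 ± 0.31, Adgre1 had 0.92 ± 0.25 and 0.89 ± 0.25, and Cxcl13 had 2.13 ± 0.54 and 2.62 ± 0.55.

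**Figure D4:**
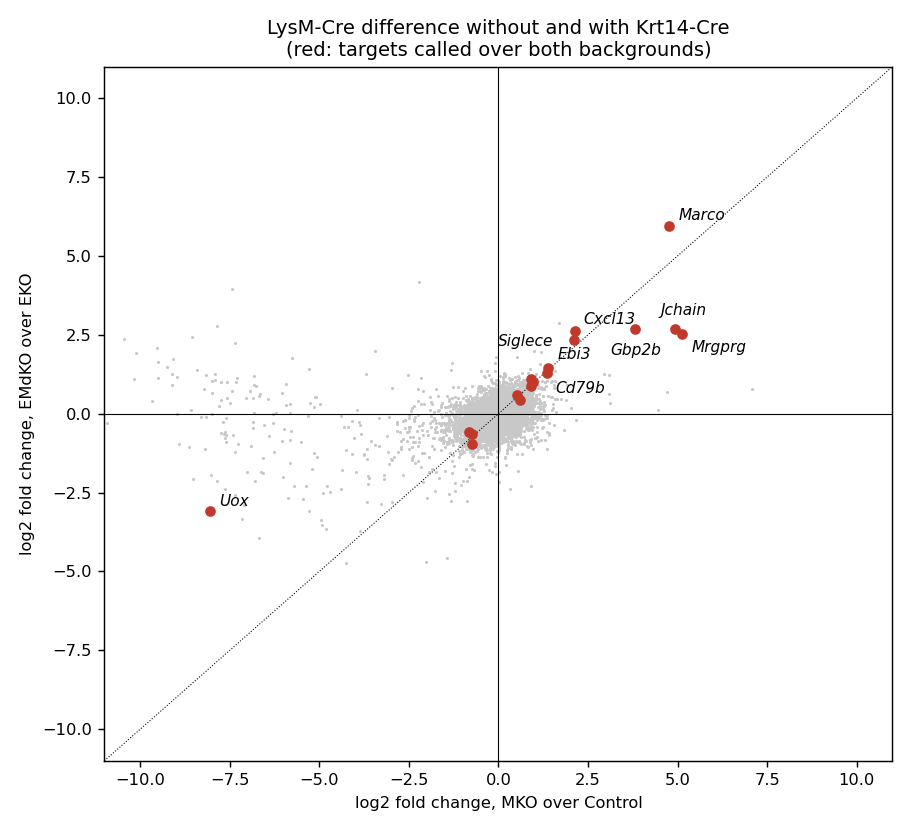
log2 fold change of EMdKO over EKO (vertical axis) against that of MKO over Control (horizontal axis) for 13633 targets, with the 17 called targets in red, names for the larger changes and a dotted line of equal change. All red points lie in the lower left or upper right part, and Mrgprg, Jchain and Uox lie farthest from the dotted line.

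The ranges of single mice come from the same values as the calls, so they are a description and no second test. The 8 carriers were all above the 8 non-carriers for 10 targets (0.0734% of those tested) and all below for 3 (0.0220%). Of the 17 called targets, 5 were among these 13, Marco, Siglece, Gbp2b, Ebi3 and Jchain. The others with a symbol included the cytoskeletal gene Septin3 (1.07 ± 0.21 SE), the phospholipase gene Plcb4 (0.58 ± 0.12 SE), the nuclear pore gene Nup107 (-0.76 ± 0.16 SE) and the DNA replication licensing gene Cdt1 (-0.67 ± 0.18 SE), with edgeR quasi-likelihood adjusted p of 0.0567, 0.0641, 0.0922 and 0.144. Within backgrounds, all 4 MKO mice were above all 4 Control mice for 187 targets (1.37%) and all 4 EMdKO mice above all 4 EKO mice for 390 (2.86%). Both held for 18 of the 13633 targets tested, and 10 of the 17 called targets were among these 18. Another 14 targets were lower without overlap within both backgrounds.

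LysM-Cre sits on mouse chromosome 10, and the part that sequence linked to it has in any difference was not tested. Within 10 Mb of Lyz2, 79 targets were tested and none was called, where 0.125% of all targets were called. Among them 4 were higher and 8 lower at an unadjusted p under 0.05, which is 15.2% of the 79 against 12.9% of all targets. None of the 17 called targets was on chromosome 10, and the share of tested targets on that chromosome was not counted. Besides Lyz1, Lyz2 and Nup107 the smallest p belonged to Thap2 at 0.45 ± 0.13 SE and Csrp2 at -0.66 ± 0.19 SE (edgeR quasi-likelihood adjusted p = 0.154 and 0.158).

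How far the 17 calls rested on single mice was examined by leaving out each of the 16 in turn. Marco, Siglece, Gbp2b, Ebi3 and Mrgprg were called in all 16 fits. The other 12 each lost the call in at least 6 of them, and none of the 17 changed sign. The 10 targets from Jchain to Uox shared the adjusted p of 0.0499, so they stood next to the threshold together. The number of calls was 5 without EKO mouse 3 and 149 without EMdKO mouse 3, of which 27 were higher and 122 lower.

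**Figure D5:**
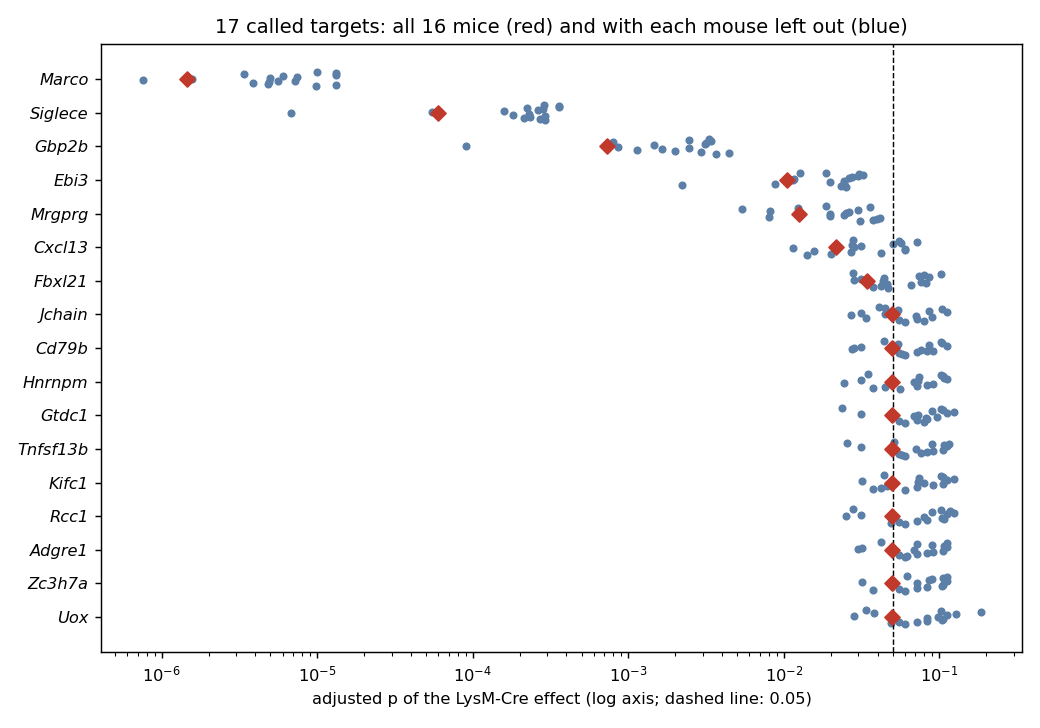
Adjusted p of the LysM-Cre effect (horizontal log axis, dashed line at 0.05) for the 17 called targets (rows), with a red diamond for all 16 mice and a blue point for each fit without 1 mouse. The blue points of Marco, Siglece, Gbp2b, Ebi3 and Mrgprg all lie left of the line, and those of the other 12 targets lie on both sides.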

How the data were processed

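Total RNA of whole skin from 16 mice was read with the Ion AmpliSeq Transcriptome Mouse panel, per the labels' protocols. The files as deposited by the authors give raw read counts for 23930 targets, named by RefSeq accession. The submitters' processing notes name HTSeq 0.6.0 and DESeq2 1.18.1, and the aligner, build and annotation are not given in the sources used here. HTSeq's 5 summary lines (3.111 to 5.252% of reads) were dropped. Of the targets, 22562 were matched to a symbol, and the 1368 others held at most 0.31% of any library's counts. No pair of libraries looked like copies (smallest chi-square per degree of freedom 14.43).

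Groups came from the labels. The main analysis used R 4.3.3 and edgeR 4.0.16: a quasi-likelihood fit after TMM scaling and the default expression filter over the 4 groups, with additive LysM-Cre and Krt14-Cre terms (13 residual degrees of freedom, biological coefficient of variation 0.322). Single backgrounds and the interaction came from a fit with 1 mean per group (12 residual degrees of freedom). A target was called at an adjusted p under 0.05. The SE of a log2 fold change is its size over the root of the F statistic. CPM rests on TMM-scaled totals, and log2 CPM on a prior count of 2. Zc3h12a, Lyz2 and Krt14 were compared by exact permutation within Krt14-Cre status. The p-values measure the spread between these mice, and the labels name no batch.

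The comparison, the gene lists and the genes named were chosen with earlier results of these data known. Named were those 3 genes, all called targets, up to 4 members of each list by p, members of 4 receptor and GTPase families with a mean log2 CPM of at least 0, targets whose 8 carriers did not overlap the 8 others, and targets near Lyz2 at an unadjusted p under 0.05. Fcgr1, Cd68, Cd74, Il27, Il6, Il12b, the other genes with too few counts to be tested and the 3 DESeq2 calls for the interaction were named after their values were seen. Lists are described by counts and medians, without a test.

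The fit was tested on simulated data for this comparison, with 50 genes at each of 4 sizes among 13529. At log2 sizes of 0.5, 1, 2 and 3 the fit found 8, 78, 100 and 100%, and 4 of 147 calls were false. These rates are not split by expression level. They therefore do not give the recovery of low targets such as Marco, Gbp2b, Mrgprg, Jchain and Uox. The mean log2 CPM of these was 0.58, 0.55, 0.73, 0.50 and 0.32. The false calls are those of simulated counts and give no error rate for the 17 called targets. Alternatives were DESeq2 1.42.0, limma 3.58.1 (voom), other scalings and filters, no Krt14-Cre term, the mouse number as a block, tissue levels as covariates, and mice left out. The cell cycle and macrophage covariates and the removal of 2 mice together were added after the data were seen. Intervals cover counting error only, and reads carry no molecular identifiers. Figures used python 3.11.15 and matplotlib 3.10.9.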

Additional observations from a re-analysis of the deposited data

How the results depend on the processing

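Against the 17 targets called by edgeR over both backgrounds, DESeq2 called 245 (89 higher, 156 lower, with all 17 among them) and limma-voom 79 (40 higher, 39 lower, with 15 of the 17), whereas other choices gave fewer: 7 with no filter on low counts, 6 with a stricter filter, 6 as the mean of both effects in the fit with 1 mean per group, 5 without the Krt14-Cre term and 6 with the hair level as a covariate. The muscle level as a covariate gave 26 and, added after the data were seen, the cell cycle level gave 2 and the removal of EKO mouse 1 and Control mouse 1 gave 32. Other scalings gave 18 and 12. Leaving out 1 mouse gave 5 to 149. Marco and Siglece were called under all 30 alternatives and none of the 17 changed sign.

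For MKO against Control, 4 targets in the main analysis, DESeq2 called 116, the 8 mice alone gave 1, the removal of both mice gave 1 and leaving out 1 mouse gave 1 to 5. For EMdKO against EKO, with 2, DESeq2 called 9, the removal of both mice gave 1 and leaving out 1 mouse gave 1 to 3. For the interaction, with 0, DESeq2 called 3. The cause of these differences was not tested.

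With the hair level as a covariate the medians of lists moved to 1.76 for B and plasma cell genes, 0.22 for alternative macrophage activation, -0.47 for antimicrobial peptides, 0.073 for hair genes and -0.056 for melanocyte markers. Without EKO mouse 1 and Control mouse 1 the melanocyte median was -0.63. The hair median ranged from -6.78 without EMdKO mouse 3 to -1.97 without Control mouse 1. Small medians were less stable: those of the macrophage marker, scavenger receptor, Siglec, cytokine, MCPIP1 target, chemokine, T and NK cell, adipocyte, muscle and immediate early lists each changed sign in at least 1 alternative. Gbp5, at 0.81 in the main analysis, reversed to -0.20 with the cell cycle covariate.

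Mouse numbers did not pair the libraries as a whole: 7 of 24 same-numbered pairs had a correlation of deviations over 0.1 (median -0.11), and 5 of 16 libraries correlated best with their own number. Among the mice numbered 4 the correlation was 0.61 for EKO and Control, 0.57 for EMdKO and Control and 0.40 for EKO and EMdKO. With MKO mouse 4 it was -0.36, -0.54 and -0.47 for EKO, Control and EMdKO. Whether mice numbered 4 shared a factor was not tested. With the mouse number as a replicate block, 16 targets were called, 15 higher and 1 lower, of which 12 were among the 17.

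Depth limits the low targets: Marco, Gbp2b, Mrgprg, Jchain and Uox had under 10 counts in several libraries, and the intervals of their ratios are wide.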

Other observations

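Lists that bear on other tissue of the skin showed small shifts. Of 14 tested circadian clock genes 11 were higher in carriers and none was called, with a median log2 fold change of 0.31 (0.24 in MKO against Control and 0.27 in EMdKO against EKO). At an unadjusted p under 0.05, 3 of the 14 were higher, where 5.73% of all targets were, and 1 was lower, where 7.20% of all targets were. Adipocyte genes were higher in 13 of 15, with a median of 0.15, which was -0.05 in MKO against Control and 0.28 in EMdKO against EKO, and turned to -0.065 without MKO mouse 1. Skeletal muscle genes were higher in 17 of 19, with a median of 0.23, which was 0.53 in MKO against Control and -0.05 in EMdKO against EKO, and turned to -0.033 without MKO mouse 1. Of 23 collagen and matrix genes 16 were lower, with a median of -0.09, and of 15 sebaceous gland genes 11 were lower, with a median of -0.20 (-0.39 in MKO against Control and 0.084 in EMdKO against EKO). Immediate early and stress genes had a median of 0.23, with -0.14 in MKO against Control and 0.66 in EMdKO against EKO, and the difference between backgrounds was not tested for the list. Without EMdKO mouse 3 the overall median was -0.041. None of these lists held a called gene in the edgeR quasi-likelihood test.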
